A study of Mus musculus with 25 samples.

Results

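The genes described here are 10 markers of upper cortical layer neurons, namely Cux1, Cux2, Rasgrf2, Calb1, Lamp5, Nectin3, Mdga1, Lhx2, Wfs1 and Kitl, out of 23990 genes in the expression table. They were matched by symbol, and all 10 were found. As a set they were selected on knowledge that cortical layer genes, Cux2 above all, differed between the libraries examined. Their spread between libraries and their high and low libraries are therefore given as a description, and no test of them is read as support. The study sequenced total RNA of the prefrontal cortex of wild-type C57BL/6 mice aged 10 weeks, with 25 samples in 6 groups of 4 to 5. Males and females were either controls, or went through social defeat stress (repeated exposure to an aggressor) while receiving vehicle or a combination of dihydrocaffeic acid and malvidin-glucoside, which began before the stress and continued during it. The libraries used here are the 5 of the group labelled M-stress/vehicle, which are stressed males given vehicle (replicates 1 to 5). Each column name of the table joins 1 letter to 1 number. A single letter has numbers up to 5, as do the titles of this group alone. The match of that letter to this group, and of its numbers to replicates, was inferred from this and is not stated by the labels. The remaining 20 columns have names that fit the 5 other groups equally well and were not used, so differences between letters, sexes, stress and treatment were not analysed here. The labels do not state that each library is a separate animal, and the spread may in part be technical.

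The mammalian cortex is built of layers of excitatory neurons. Upper layer neurons lie close to the surface of the brain and the meninges and send axons mostly to other cortical areas, including the opposite hemisphere. Deep layer neurons lie next to the white matter, which holds the myelinated axons, and project to the thalamus, brainstem and spinal cord. Most upper layer markers are not exclusive to these neurons: Calb1, Lamp5 and Cux2 are also made by some interneurons, and Calb1 and Wfs1 by neurons of other forebrain regions. In bulk tissue, fewer cells of a type and less RNA per cell cannot be told apart.

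Promoter windows of the members were taken from RefSeq (GRCm38.p6), which holds 12 start sites for 9 of the 10 genes and none for Calb1. A window is the 250 bases before a start, read 5′ to 3′ on the strand of the gene. The 3 windows printed belong to Cux2, the member with the widest fold range between libraries, to Rasgrf2, which ranked the libraries 4 and 3 at the same ends, and to Lhx2, the member with the narrowest range. They lie at chr5:122047826-122048075 (minus strand, the inner of the Cux2 starts), chr13:92131829-92132078 (minus strand) and chr2:38339031-38339280 (plus strand). Capitals mark matches, on either strand, to GGGCGG (the GC box bound by Sp factors), TATAAA (the TATA box), TGACGT (part of the cAMP response element), CAGATG (an E-box of neuronal bHLH factors), ATCGAT (a site of the CUX family) and TAATTA (a homeodomain site).
Cux2: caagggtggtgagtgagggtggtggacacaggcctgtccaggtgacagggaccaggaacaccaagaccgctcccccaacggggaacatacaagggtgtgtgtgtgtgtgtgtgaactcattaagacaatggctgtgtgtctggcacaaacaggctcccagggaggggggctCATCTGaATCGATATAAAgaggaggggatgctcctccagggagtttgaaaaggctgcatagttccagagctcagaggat
Rasgrf2: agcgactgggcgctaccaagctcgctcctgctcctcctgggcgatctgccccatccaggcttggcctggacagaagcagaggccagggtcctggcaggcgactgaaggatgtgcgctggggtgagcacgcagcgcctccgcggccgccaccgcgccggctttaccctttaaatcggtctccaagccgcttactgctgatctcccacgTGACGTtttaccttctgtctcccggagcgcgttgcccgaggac
Lhx2: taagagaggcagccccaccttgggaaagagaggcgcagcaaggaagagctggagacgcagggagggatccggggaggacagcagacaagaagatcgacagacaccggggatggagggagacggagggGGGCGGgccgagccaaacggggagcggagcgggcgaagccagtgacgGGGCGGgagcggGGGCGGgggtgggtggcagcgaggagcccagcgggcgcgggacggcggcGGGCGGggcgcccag

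The Cux2 window held a CUX site overlapping a TATA box, with an E-box just before them. A CUX site occurred in 0.728% of 32851 windows of all genes, a TATA box in 12.4% and this E-box in 14.4%. Of the 12 member windows, 1 held a CUX site, 2 a TATA box and 2 this E-box. The Rasgrf2 window held 1 cAMP response motif. That motif was found in 1 of 12 member windows and in 6.47% of all windows. The Lhx2 window held 4 GC boxes, and 5 of 12 member windows held at least 1, beside 32.7% of all windows. No member window held the homeodomain site, which was in 4.84% of all windows. The outer Cux2 start, not printed, was at 80% G and C and held none of these motifs. In GC content, 9 of 12 member windows reached 60%, beside 27.9% of all windows, and the exceptions were the inner Cux2 window (55.2%) and both of Lamp5 (49.2% and 48.8%). A match describes letters in the window and does not show binding.

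Slc17a7 and Tbr1, which mark cortical excitatory neurons, had reads in every library. All 10 members were expressed in each of the 5 libraries. Levels between genes were compared as RPKM, that is CPM (reads per 1000000 reads of library size) per kilobase of exon. Lamp5 stood highest at 21.8 ± 10.7 RPKM (mean ± SD, n = 5), then Wfs1 (16.6 ± 5.55 RPKM), Lhx2 (14.0 ± 1.31 RPKM) and Calb1 (12.9 ± 3.74 RPKM). Rasgrf2 followed at 9.11 ± 2.91 RPKM, Cux2 at 4.88 ± 1.97 RPKM and Kitl at 4.62 ± 0.947 RPKM. The lowest were Cux1 (2.53 ± 0.360 RPKM), Nectin3 (1.604 ± 0.401 RPKM) and Mdga1 (1.37 ± 0.167 RPKM). Ranges over libraries of neighbours in this order overlapped, except between Kitl and Cux1 and between Cux1 and Nectin3. Within a library, Lamp5 was above Wfs1 in 4 of 5, Wfs1 above Lhx2 in 3 of 5, Lhx2 above Calb1 in 3 of 5 and Cux2 above Kitl in 3 of 5, so these pairs had no fixed order. The union of Cux1 exons, 20024 bp over 14 annotated transcripts, is the longest of the members and is the length by which its RPKM was divided.

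Libraries held 34565147 to 44265039 reads, and replicate 4 was the shallowest and replicate 3 the deepest. Members had 442 to 4251 reads in a library, so counting error alone was 1.53% to 4.76%. It covers the counting of reads only, which are not shown to be independent molecules. From here on, levels are CPM, with the effective library size that the deposited values carry.

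Replicate 4 held the highest level of 8 of the 10 members, beside 26.8% of the 14524 genes whose mean reached 1 CPM. Replicate 3 held the lowest level of 6 of 10, beside 16.9% of those genes. Every member was higher in replicate 4 than in replicate 3, by 1.83-fold at the median, beside 50.4% of all genes and a median of 1.00-fold. Between replicates 5 and 3, 6 of 10 were higher in replicate 5, beside 48.4% of all genes. The highest library was at least 1.5 times the lowest for 7 of 10 members, beside 21.7% of all genes. By a chi-square comparison of reads with library size, all 10 were past the counting error of reads alone, and so were 74.4% of 19239 genes. The comparison restates the choice of the genes and sets the spread between separate samples against counting noise only, so nothing is read from it. The count was 8 without replicate 4, beside 12758 of 19382 genes. It was 9 without replicate 3, beside 12899 of 19213 genes.

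**Figure D1:**
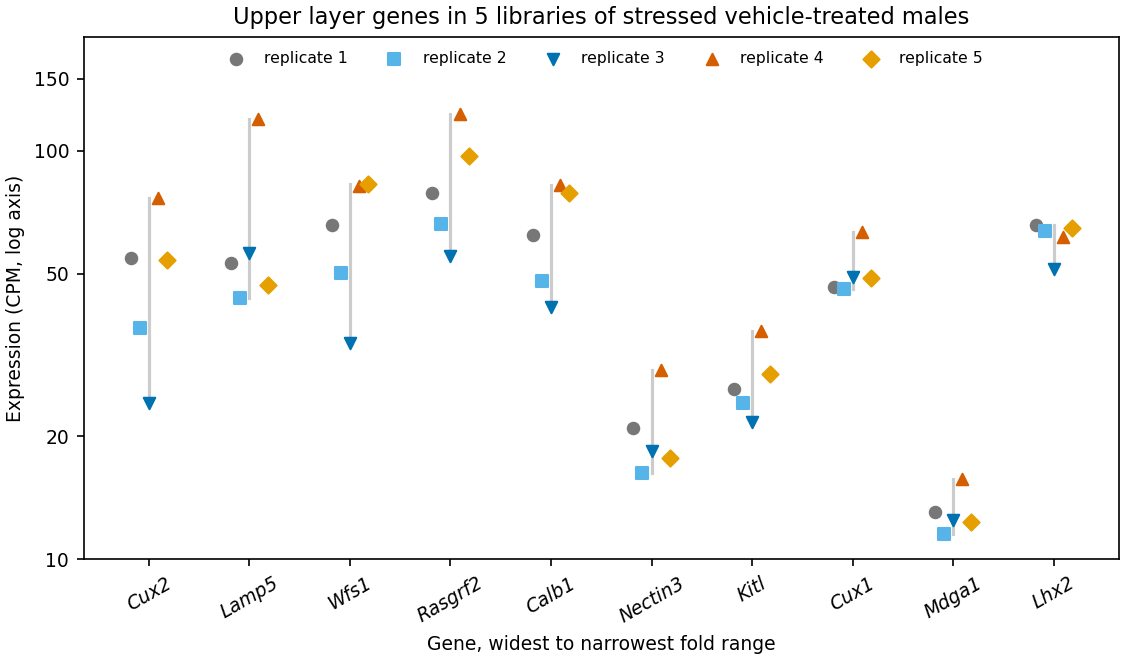
Expression of each member in CPM (log axis) in the 5 libraries of stressed vehicle-treated males, 1 point per library, with genes ordered by the ratio of highest to lowest library and a grey bar over that range. Replicate 4 (upward triangles) is on top for 8 genes, while replicate 3 (downward triangles) is lowest for Cux2, Wfs1, Rasgrf2, Calb1, Kitl and Lhx2 but not for Lamp5, Nectin3, Cux1 and Mdga1.

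Among the transcription factors, Cux2 and Cux1 are homeodomain proteins related to Drosophila cut, and Cux2 shapes dendrites and synapses of upper layer neurons. Cux2 (ENSMUSG00000042589, chromosome 5, 121856366 to 122050102, minus strand, GRCm38) stood at 54.6, 36.8, 24.1, 76.4 and 54.1 CPM in replicates 1 to 5. The highest library, replicate 4, was at 3.17 times the lowest, replicate 3, and replicates 1 and 5 lay together between them. The range was 2.27-fold without replicate 4 and 2.08-fold without replicate 3. Its ratio to Lhx2 in CPM, which does not depend on the scaling of libraries, ran from 0.468 in replicate 3 to 1.24 in replicate 4.

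Cux1 (ENSMUSG00000029705, chromosome 5, 136248135 to 136567490, minus strand) stood at 46.3, 45.9, 49.0, 63.3 and 48.7 CPM. Replicate 4 was alone at the top, 1.29 times the next library, and the other 4 were within 1.07-fold of each other, so its range of 1.38-fold rests on replicate 4. Of its exon length 1.97% is shared with the antisense gene Gm16599, and the locus also encodes the Golgi protein CASP by alternative splicing, so these reads are not all of the homeodomain form. No other member shares exon sequence with another gene in GENCODE M21.

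Lhx2, a LIM homeodomain factor of forebrain patterning, stood at 65.7, 63.6, 51.4, 61.6 and 64.6 CPM (ENSMUSG00000000247, chromosome 2, 38339281 to 38369733, plus strand). It was the flattest member, at 1.28-fold from highest to lowest. Without replicate 3, its lowest library, the range was 1.07-fold, and replicate 4, which was highest for most members, was second lowest.

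Among signalling genes, Rasgrf2 encodes a calcium-regulated exchange factor for Ras and Rac, and Calb1 the calcium-binding protein calbindin. Rasgrf2 (ENSMUSG00000021708, chromosome 13, 91880400 to 92131656, minus strand) stood at 78.9, 66.1, 55.1, 123 and 97.2 CPM, a 2.24-fold range. Calb1 (ENSMUSG00000028222, chromosome 4, 15881264 to 15908064, plus strand) stood at 62.2, 48.0, 41.4, 82.4 and 78.7 CPM, a 1.99-fold range. Both put the libraries in 1 order, replicate 3 lowest, then 2, 1, 5 and 4, and their profiles differed by 0.097 log2 units (root mean square over 5 libraries), among the closest of 45 pairs of members.

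Kitl, the secreted and membrane-bound ligand of the receptor Kit, had the same order of libraries at lower levels. It stood at 26.1, 24.1, 21.6, 36.3 and 28.5 CPM (ENSMUSG00000019966, chromosome 10, 100015630 to 100100416, plus strand). Its range was 1.68-fold, and 1.32-fold without replicate 4. Its receptor Kit, made mostly by interneurons in cortex, stood at 29.0, 28.9, 24.97, 29.98 and 35.4 CPM and was highest in replicate 5.

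Wfs1 encodes wolframin, a membrane protein of the endoplasmic reticulum involved in calcium balance. It stood at 65.6, 50.2, 33.9, 81.8 and 82.9 CPM (ENSMUSG00000039474, chromosome 5, 36966104 to 36989205, minus strand), a 2.45-fold range. Replicates 4 and 5 were level at the top, so leaving out replicate 4 left the range at 2.45-fold, and leaving out replicate 3 brought it to 1.65-fold.

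The remaining members, Lamp5, Nectin3 and Mdga1, had replicate 4 highest and replicate 2 lowest, as Cux1 did. Lamp5, a lysosome-associated membrane protein of neurons, stood at 52.9, 43.5, 56.3, 119 and 47.0 CPM (ENSMUSG00000027270, chromosome 2, 136052239 to 136069917, plus strand). Replicate 4 was at 2.12 times the next library, which was replicate 3, and the range of 2.74-fold was 1.29-fold without replicate 4. Lamp5 and Wfs1 were the least alike pair of members, at 0.57 log2 units, and the ratio of Lamp5 to Wfs1 in CPM ran from 0.567 in replicate 5 to 1.66 in replicate 3.

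Nectin3, a cell adhesion molecule of synaptic and adherens junctions, stood at 20.9, 16.2, 18.4, 29.1 and 17.7 CPM (ENSMUSG00000022656, chromosome 16, 46387706 to 46498525, minus strand). Its range was 1.79-fold, and 1.29-fold without replicate 4. Mdga1, a membrane-anchored protein that binds neuroligins and limits synapse formation, stood at 13.1, 11.6, 12.5, 15.7 and 12.4 CPM (ENSMUSG00000043557, chromosome 17, 29827949 to 29970087, minus strand), a range of 1.36-fold, and of 1.13-fold without replicate 4. As for Lamp5 and Cux1, only replicate 4 stood above the rest, and replicate 2 was lowest. Cux1 and Mdga1 were the closest pair of all, at 0.067 log2 units.

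The members thus gave more than 1 profile. Cux2, Rasgrf2, Calb1, Wfs1 and Kitl had replicate 3 lowest and replicate 2 next. Lamp5, Nectin3, Cux1 and Mdga1 had replicate 2 lowest and replicate 4 alone on top, with replicate 3 in the middle or second. Lhx2 fell outside both, with replicate 3 lowest, replicate 4 second lowest and replicate 1 highest. This division was drawn after the values were seen. The paralogs Cux1 and Cux2 were on different sides of it, at 0.49 log2 units from each other, and the ratio of Cux2 to Cux1 in CPM ran from 0.491 in replicate 3 to 1.21 in replicate 4.

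**Figure D2:**
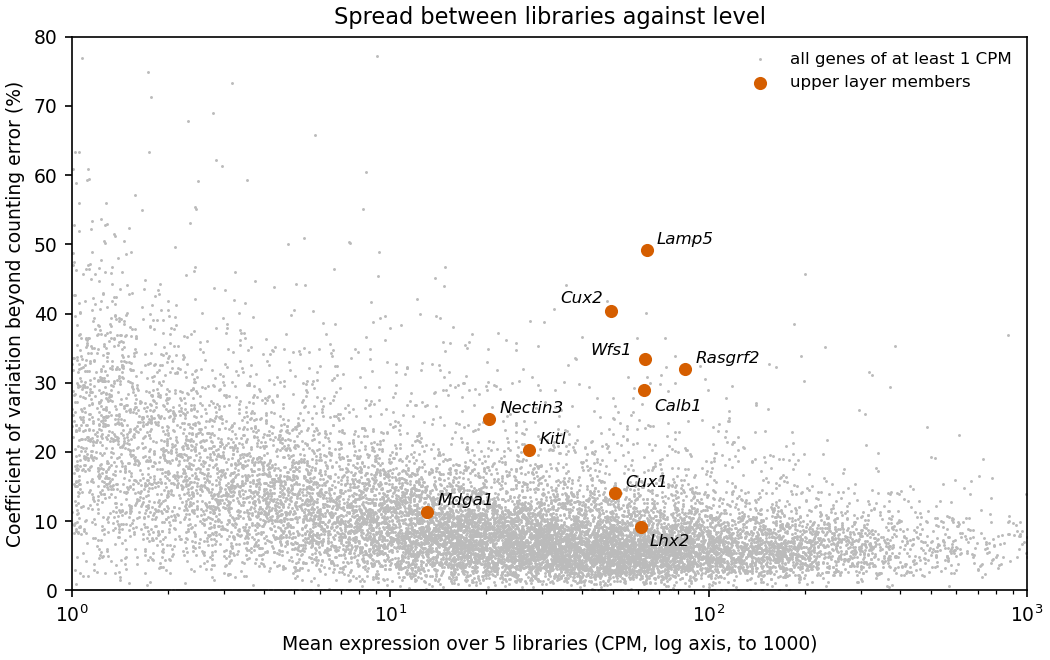
Coefficient of variation between the 5 libraries after counting error is subtracted (vertical axis, percent) against mean expression (horizontal log axis, CPM) for genes of at least 1 CPM in grey and the members in orange, with 89 genes outside the plotted limits. Lamp5 and Cux2 have a larger coefficient than 99.6% and 99.0% of all these genes, while for Lhx2 the share is 56.2%.

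After counting error was subtracted, the median coefficient of variation was 26.8% over the members and 8.24% over all genes of at least 1 CPM. It was 49.2% for Lamp5, 40.3% for Cux2, 33.4% for Wfs1, 31.9% for Rasgrf2 and 28.9% for Calb1. At the other end were Cux1 (14.1%), Mdga1 (11.4%) and Lhx2 (9.18%).

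A score was computed per library as the mean over genes of log2 expression less the mean of that gene over libraries. For the members it was 0.03, -0.23, -0.37, 0.49 and 0.09 in replicates 1 to 5. The range of 0.85 log2 units corresponds to 1.81-fold, and it was 1.37-fold without replicate 4 and 1.64-fold without replicate 3. A second list of 10 upper layer genes, none of them a member, scored -0.06, -0.14, -0.21, 0.35 and 0.06, with the same highest and lowest libraries and a range of 1.48-fold (1.20-fold without replicate 4). Of these, 7 of 10 were highest in replicate 4, beside 26.8% of all genes. Only 3 of 10 were lowest in replicate 3, beside 16.9% of all genes. The most variable was Otof, a calcium sensor of vesicle release, at 18.2, 10.9, 4.64, 19.0 and 21.8 CPM, a 4.69-fold range with the lowest value in replicate 3. Its value there was -1.49 log2 units from its mean, so the low score of this list in replicate 3 rests largely on Otof. The abundant factor Lmo4 (262, 279, 254, 314 and 324 CPM) spanned 1.28-fold, near the median of 1.26-fold over all genes of at least 1 CPM. Pou3f3 (149.98, 150.2, 152, 160.03 and 143 CPM) varied little between libraries, at 1.12-fold.

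Deep layer genes were ordered the other way. The 23 genes of this list had scores of -0.02, 0.10, 0.21, -0.26 and -0.03, highest in replicate 3 and lowest in replicate 4, a range of 1.38-fold (1.18-fold without replicate 4). Of the 23, 14 were lowest in replicate 4, beside 23.5% of all genes. Only 2, Etv1 and Deptor, were higher in replicate 4 than in replicate 3, beside 50.4% of all genes. The layer factor Tbr1 stood at 208, 249, 255, 212 and 236 CPM and the sulfotransferase gene Hs3st4 at 127, 161, 162, 99.9 and 134 CPM. The most variable, the neurexophilin gene Nxph4, stood at 8.76, 10.9, 13.4, 5.10 and 5.88 CPM. The upper score less the deep score spanned 2.49-fold, from -0.57 in replicate 3 to 0.74 in replicate 4, and 1.62-fold without replicate 4. As a ratio of summed CPM, the members stood to the deep genes at 0.356, 0.261, 0.222, 0.567 and 0.367. The order of the libraries by this ratio (3, 2, 1, 5, 4) is the one that Rasgrf2, Calb1 and Kitl gave singly. These genes are part of the members' sum, so the match is partly built in, and no other member gave this order. This difference between the lists was not tested, because the libraries belong to 1 group and upper and deep genes were both listed with earlier results known.

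**Figure D3:**
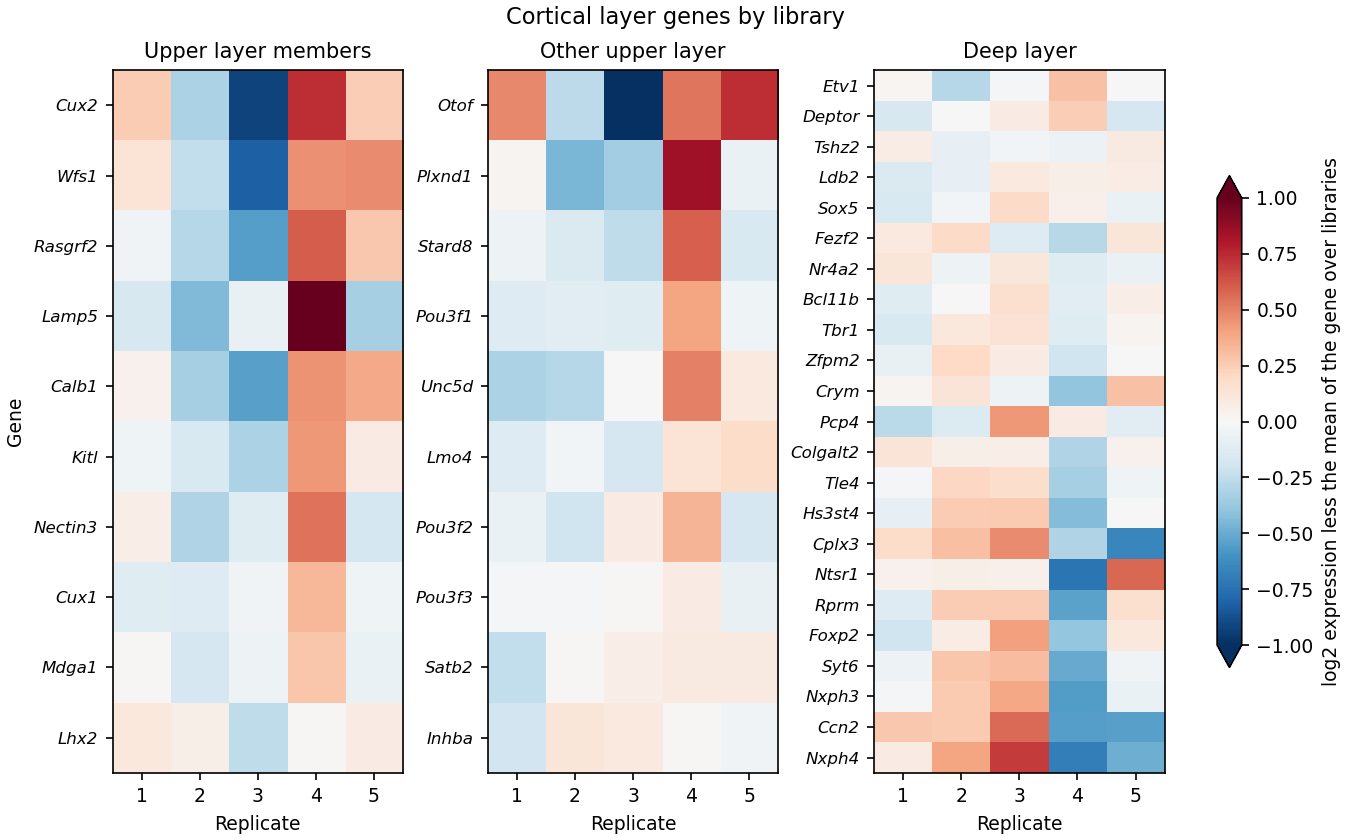
Log2 expression less the mean of each gene over the 5 libraries (colour, red above and blue below the mean, with the scale ending at -1 and 1) for the members, 10 other upper layer genes and 23 deep layer genes, each sorted by replicate 4 minus replicate 3. The column of replicate 4 is red for most upper layer genes and blue for most deep layer genes, and replicate 3 is the reverse for Cux2, Wfs1, Rasgrf2 and Calb1.

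The score of genes shared by excitatory neurons of all layers ran from -0.11 in replicate 1 to 0.11 in replicate 4, a range of 1.16-fold over 9 genes. Slc17a7, the vesicular glutamate transporter, stood at 1769, 2020, 1961, 1920 and 1958 CPM, the kinase gene Camk2a at 3332, 3174, 2897, 4010 and 3595 CPM, and the synaptic gene Nrgn at 1330, 1492, 1667, 1892 and 1421 CPM. The member score less this score still spanned 1.68-fold. Interneuron genes spanned 1.08-fold, with Sst at 332, 357, 316, 249 and 369 CPM, Gad1 at 253, 256, 293, 316 and 242 CPM, and Pvalb, the most variable, at 42.1, 46.7, 64.4, 64.5 and 33.0 CPM. Of the 12 interneuron genes, 4 were highest in replicate 4, Vip and Ndnf among them, and 3 were lowest there, Sst among them. The shares over all genes were near these, at 26.8% highest and 23.5% lowest in replicate 4. Layer IV genes were few. Of 4 listed, 3 were highest in replicate 4, Rorb among them (34.0 CPM), beside 26.8% of all genes, and Whrn was lowest there (43.3 CPM). Their score spanned 1.57-fold, from -0.33 in replicate 2 to 0.32 in replicate 4. Scnn1a, 1 of the 4, stood at only 0.366 to 1.51 CPM.

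Leptomeningeal genes, from the membranes over the brain surface, summed to 88.8, 64.8, 59.0, 137 and 91.3 CPM. Of these, 12 of 12 that reached a mean of 1 CPM were higher in replicate 4 than in replicate 3, beside 50.4% of all genes. The leptomeningeal score had the members' order of libraries and a wider range, 3.23-fold, or 1.97-fold without replicate 4. Igf2 stood at 26.3, 17.4, 17.1, 38.4 and 24.97 CPM, the collagen gene Col1a2 at 13.8, 11.3, 7.35, 19.0 and 16.0 CPM, and the sulfate transporter gene Slc13a4 at 2.55, 0.628, 0.583, 5.92 and 3.32 CPM. Myelin genes summed to 7708, 6631, 9433, 4320 and 4430 CPM. Of these, 10 of 10 were highest in replicate 3, beside 2806 of 14524 genes of at least 1 CPM. Mbp stood at 3112, 2853, 3991, 1857 and 1809 CPM, and Mobp was likewise highest in replicate 3 (1266 CPM) and lowest in replicate 4 (547 CPM). The myelin scores were 0.33, 0.09, 0.59, -0.54 and -0.47, so that replicates 4 and 5 were both low. No listed leptomeningeal or myelin gene was without reads in any library. The part of meninges, white matter and sequencing depth in the members' spread was not tested.

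Astrocyte genes had their highest score in replicate 1, with Gfap at 116, 61.2, 80.03, 55.4 and 51.2 CPM, while Slc1a2 (3861 to 4347 CPM) and Aldoc (714 to 810 CPM) varied little. Striatal projection neuron genes, which share Calb1 and Wfs1 expression with the members, had their highest score in replicate 3, where Calb1 and Wfs1 were lowest. Among them Ppp1r1b stood at 92.2, 118, 145, 95.7 and 100.3 CPM and Scn4b at 62.6, 62.7, 126, 147 and 45.3 CPM.

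**Figure D4:**
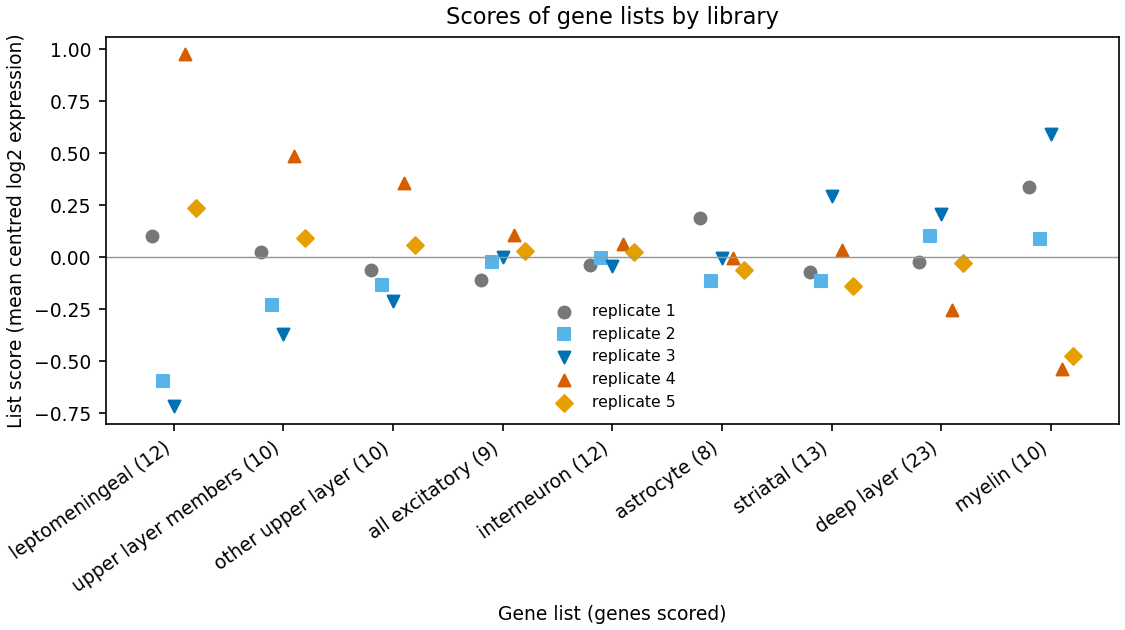
Score of each gene list (vertical axis, the mean of centred log2 values over the genes of that list) in the 5 libraries, 1 point per library, with the number of genes scored in parentheses and without the layer IV and partner lists. Leptomeningeal and upper layer lists have replicate 4 on top and replicate 3 at the bottom, deep layer genes the reverse, and myelin genes have replicates 4 and 5 together at the bottom.

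Of 14 partners and paralogs of the members, 13 reached a mean of 1 CPM, and their score spanned 1.08-fold. Among them 1 of 13 spanned at least 1.5-fold, beside 21.7% of all genes. This was the adhesion gene Nectin4 (4.74, 3.77, 4.01, 5.10 and 2.86 CPM). The neuroligin gene Nlgn2, whose product binds Mdga1, stood at 312, 337, 303, 340.5 and 340.3 CPM. Rasgrf1, the paralog of Rasgrf2, stood at 267, 265, 260, 313 and 283 CPM. It was thus highest in the same library as Rasgrf2, but within a far narrower range.

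The genes outside the set most like Cux2 were ranked by the root mean square difference of their log2 profiles, over 5 libraries and among genes of at least 5 CPM. In order they were Col1a2, Col1a1, Pdyn, Jsrp1, Itga4, Prkg2, Bhlhe22, Ptpn14, Anxa2 and Pcdh8, at 0.14 to 0.22 log2 units. The Cux2 profile itself has a root mean square of 0.57 log2 units. The nearest pair are fibrillar collagen genes, with Col1a1 at 5.34, 4.18, 2.87, 9.34 and 5.28 CPM. Pdyn, the precursor of dynorphin peptides, stood at 15.9, 11.1, 9.48, 24.7 and 17.8 CPM, and Bhlhe22, a bHLH factor of cortical neurons, at 25.8, 15.0, 13.4, 31.8 and 29.3 CPM. Most like the median profile of the members were Rbm24, Vip, Boc, Lingo2, Dact2, Cpne8, Cpne4, Car8, Gucy1a1 and Ndnf, at 0.039 to 0.065 log2 units. Vip and Ndnf are interneuron genes, and Vip stood at 26.8, 21.4, 20.1, 35.1 and 27.96 CPM. The ranking rests on 5 libraries and is a description.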

How the data were processed

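Total RNA of prefrontal cortex was sequenced. The values deposited by the authors are log2 expression values in a table of 25 columns. The 5 matched to stressed vehicle-treated males by the numbering of column names and titles were used, and 20 were not. Per the submitters' processing notes the tools were STAR 2.6.1d, SAMtools 1.9, featureCounts (Subread 1.6.3) and edgeR, with mm10 and GRCm38. The sources used here do not state the annotation release, the strand setting or the gene filter, so antisense reads cannot be told apart. From the values, each is log2 of reads plus 0.5, divided by an effective library size and scaled to 1000000 reads (size 0.998 to 1.04 times total reads). Whole reads came out for 100% of values within 1e-06 reads.

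Reads, CPM, and RPKM over union exons of GENCODE M21 were computed with Python 3.11.15, numpy 2.4.6, pandas 2.3.3 and scipy 1.17.1, and plots with matplotlib 3.10.9. Symbols matched 23846 of 23990 identifiers. A chi-square test that reads follow library size (4 degrees of freedom, Benjamini-Hochberg threshold 0.05, mean of 5 reads or more) was tested on simulated data. Scores use genes whose mean reached 1 CPM. The members, the 11 gene lists, and the tests were chosen with earlier results of these data known. Named genes are the members, the 2 most abundant and the most variable gene of each other list, and the 10 nearest to Cux2 and to the members' median; 1 gene under this rule is not reported here. Kit, Etv1 and Deptor, and the genes under other observations, were named, and the promoters to print chosen, after their values and motif matches were seen. Alternatives were other scalings, offsets and filters, a median over genes, and leaving out each replicate.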

Additional observations from a re-analysis of the deposited data

Results flagged for a closer look

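In 3 of 72 sets of values examined over the 5 libraries (genes named, list scores and score differences), the gap of 1 library to the next was large for the range of all 5 (Dixon's ratio). Chance alone gives about 3.6. All 3 are members, whose spread was known when they were chosen, so this is a description. Cux1 stood at 63.3 CPM in replicate 4, 1.33 times the mean of the others, which ran from 45.9 to 49.0 CPM. Lamp5 stood at 119 CPM in replicate 4, 2.39 times the mean of the others, which ran from 43.5 to 56.3 CPM. Lhx2 stood at 51.4 CPM in replicate 3, 0.805 times the mean of the others, and its Dixon ratio of 0.713 was the smallest of the 3.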

How the results depend on the processing

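No paired analysis was possible because columns of a single group were assigned. The count of members beyond counting error stayed at 10 under both other scalings and both other read filters, and was 8 to 10 with 1 replicate left out. Most genes were past it in every setting. Over all genes the count was 14293 and 14303 of 19239 under the scalings, and 12693 of 15914 and 15862 of 23856 under the filters. With 1 replicate left out it ran from 12646 of 19260 to 13125 of 19304. The range of the member score was 0.73 to 0.86 log2 units over the other settings and 0.46 to 0.85 with 1 replicate left out, lowest without replicate 4. For the upper less the deep score these were 1.19 to 1.32, and 0.69 to 1.32, again lowest without replicate 4. Counts of members highest in replicate 4 (8) and lowest in replicate 3 (6) were the same under both other scalings, alternatives added after seeing the data. Deep layer genes lowest in replicate 4 numbered 17 with scaling to total reads. Other scalings shifted a library by -0.03 to 0.04 log2 units. Among the ranges of single members, 7 alternative values moved by more than 1 SD, each with replicate 3 or 4 left out. Read depth limits Mdga1 most, with a counting error of up to 4.76%.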

Other observations

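Cplx3 and Ccn2, of the deep layer list, are known for the deepest cortical sublayer, next to the white matter. The genes named here were picked after their values were seen. Cplx3, a complexin, stood at 31.8, 34.5, 38.9, 22.7 and 17.8 CPM in replicates 1 to 5, and Ccn2, a secreted matrix protein, at 43.5, 43.3, 53.5, 24.6 and 24.8 CPM. Both had replicates 4 and 5 lowest and replicate 3 highest, the libraries at the ends of the myelin scores. Nr4a2, of the same list, spanned only 1.18-fold, from 13.0 CPM in replicate 4 to 15.3 CPM in replicate 1. Ntsr1, a receptor gene of corticothalamic neurons, was lowest in replicate 4 (9.83 CPM) but highest in replicate 5 (24.3 CPM).

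Outside the members, Plxnd1, a semaphorin receptor of callosal neurons, stood at 31.6, 22.5, 24.3, 55.6 and 29.6 CPM, with replicate 4 alone on top and replicates 2 and 3 lowest. Stard8 had 33.1 CPM in replicate 4, and 18.3 to 21.2 CPM elsewhere.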
